A study of Homo sapiens with 6 samples.

Results

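The plasminogen activation system was described through 7 genes in 8505C, an established cell line from an anaplastic thyroid cancer: PLAU, PLAT, PLAUR, ANXA2, S100A10, SERPINE2 and SERPINB2. They were found by gene name in a table of 33539 genes, where each had 1 row, and all 7 passed the filter on low values (a mean of at least 0.5 FPKM, fragments per kilobase of transcript, scaled to the mapped fragments of the library, over all libraries). Poly(A) RNA was sequenced from 3 libraries of cells given a negative control siRNA (NC) and 3 libraries of cells given an siRNA against POLR1F (siPOLR1F), all labelled 24 h and all grown in RPMI-1640 with 10% fetal bovine serum. POLR1F encodes a subunit of RNA polymerase I, and the comparison asks which genes differ when it is silenced. Both groups are 1 cell line under 1 batch label, and each used an siRNA whose sequence the labels do not give. Nor do they tell whether separate cultures were used, so each p-value speaks only of library-to-library spread, possibly technical in part.

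The system turns plasminogen, an inactive proenzyme made mainly by the liver, into plasmin, a protease that dissolves fibrin and cuts matrix proteins around cells. A pair of secreted proteases, urokinase (PLAU) and tissue-type plasminogen activator (PLAT), make the cut. PLAUR holds urokinase at the cell surface, the complex of ANXA2 and S100A10 gathers plasminogen and its activators there, and serpins such as SERPINE2 and SERPINB2 block the activators. In many carcinomas urokinase and its receptor are studied for their part in invasion. PLG, the plasminogen gene, was looked for by name and had no row in the table of genes.

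Depth was alike, from 60576788 to 63038378 counts per library. POLR1F, the silenced gene, was counted 2446, 2246 and 2095 times under NC and 575, 395 and 413 times under siPOLR1F (log2 fold change -2.30, edgeR adjusted p = 9.76e-05). The libraries held mesenchymal VIM (671 FPKM in NC, mean of 3) and epithelial KRT8 (117) and KRT18 (162), whereas the thyroid differentiation genes TG, TSHR and SLC5A5 were at or below 0.0256 FPKM in every library. Of the epithelial list KRT19 (0.729), EPCAM (0.762) and CDH1 (0.0285) were below 1 FPKM in NC. Of 3 leukocyte markers found, PTPRC was at or below 0.00907 FPKM in every library, while CD68 went from 9.33 to 12.9 FPKM (edgeR adjusted p = 0.162) and CD14 was at 1.57 in both groups, with a sum of 9.08 to 14.0 FPKM in NC and 11.4 to 17.6 in siPOLR1F. NKX2-1, a thyroid transcription factor, went from a mean of 45.2 to 27.5 FPKM (edgeR adjusted p = 0.000435). HHEX, also of the thyroid list, went from 4.88 to 4.38 FPKM and did not pass (edgeR adjusted p = 0.36). PAX8 (0.543 and 0.491 FPKM, edgeR adjusted p = 0.872) and FOXE1 (0.209 and 0.201) were below 1 FPKM in both groups. None of the 5 fibroblast markers reached a mean of 1 FPKM. Of 5 endothelial markers only CDH5 did, going from 5.65 to 2.72 FPKM (edgeR adjusted p = 0.00308), and their sum was 5.65 to 7.18 FPKM in NC and 2.40 to 5.23 in siPOLR1F. The part of these markers in the results was not tested. The 7 genes took 0.556% to 0.584% of all counts in the NC libraries and 0.488% to 0.502% in the siPOLR1F libraries.

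Of the 7 genes, 3 fell (PLAU, PLAT and S100A10), 1 rose (PLAUR) and 3 did not pass the test (ANXA2, SERPINE2 and SERPINB2), at an adjusted p below 0.05 in edgeR's quasi-likelihood test. Over all 13564 genes tested the same rule called 17.2%, with 10.3% higher and 6.94% lower in siPOLR1F. The FPKM of the groups did not overlap for 5 of the 7 genes, against 37.9% of all genes tested. The exact two-sided permutation test of 3 against 3 libraries cannot give a p below 0.1, and gave 0.1 for each of those 5. In RNA of whole cultures, fewer cells of a kind and less RNA per cell cannot be told apart.

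Short stretches before the start sites of 4 of the genes are shown. Those of PLAUR, ANXA2 and SERPINB2 were picked for a match to TGANTCA, and that of PLAU for matches to GGGCGG. S100A10 and SERPINE2, which also matched GGGCGG, are not shown. PLAUR rose, PLAU fell, and ANXA2 and SERPINB2 did not pass the test. As the letters decided the choice, the stretches cannot tie them to a direction. The letters come from RefSeq on GRCh38.p14, within the 250 bases before an annotated start, and read 5′ to 3′ on the strand of the gene. Capitals mark matches to TGANTCA (the motif of the AP-1 transcription factors) or GGGCGG (that of SP1). These motifs and TATAAA (the TATA box) were searched on both strands. Of the 7 genes 6 had windows, 8 windows in all, and PLAT is named only. In GENCODE 29 the PLAUR stretch lies in the 5′ UTR of longer transcripts of the gene. The PLAU, ANXA2 and SERPINB2 stretches lie inside the gene spans, in introns of longer transcripts, and that of PLAU also in an exon of C10orf55 on the other strand.

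PLAU, chr10:73911061-73911090, plus strand: gagccGGGCGGgagagggagGGGCGGcgcc

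PLAUR, chr19:43670339-43670365, minus strand: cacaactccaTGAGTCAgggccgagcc

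ANXA2, chr15:60398097-60398123, minus strand: cgggccggggTGAGTCAcccctgactt

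SERPINB2, chr18:63887593-63887619, plus strand: agtaaaatgtTGAATCActcaaaggac

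The AP-1 letters occurred in the windows of PLAUR (first base 186 bases before the start), ANXA2 (127 bases) and SERPINB2 (102 bases), and in 6.57% of all 35116 windows searched, or 4.39% of the 13955 windows of tested genes. No match was in either window of PLAU or SERPINE2 or in that of S100A10. The downstream one of the PLAU windows held GGGCGG 3 times, at 66, 51 and 40 bases before the start, of which the stretch shows the first and second, while ANXA2 held 3 copies that overlap each other. SERPINE2 held such letters in both windows and S100A10 once, and 64.2% of the windows of tested genes held them. The TATA letters were in ANXA2 (31 bases) and SERPINB2 (30 bases), and in 5.73% of the windows of tested genes. These are matches of letters and do not show binding. The heptamers TCGGAGA and CCGACTT, which were taken up earlier because they stood out against these same fold changes, were absent from the longest annotated 3′ UTR of all 7 genes (GENCODE 29). Of 10910 genes searched, 2.18% and 1.99% held them in the 3′ UTR, so their absence from 7 genes is the usual case. SERPINB2 held TCGGAGA once in its coding sequence, and the other 6 held neither heptamer there; 9.33% and 6.43% of 10910 genes searched held them in either part.

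Both activators fell. PLAU (ENSG00000122861, GRCh38 chromosome 10, 73909177 to 73917494, plus strand), which encodes urokinase, stood at 108, 106 and 101 FPKM with NC, and with siPOLR1F at 60.9, 67.4 and 64.5. Every siPOLR1F library lay below every NC library. The mean went from 105 ± 3.51 to 64.3 ± 3.27 FPKM (SD, n = 3 each), a log2 fold change of -0.70 (SE 0.05, 95% interval -0.83 to -0.58; edgeR adjusted p = 0.000183). C10orf55, a gene on the other strand that overlaps PLAU, had 172, 142 and 196 counts in NC and 87, 97 and 155 in siPOLR1F (log2 fold change -0.59, edgeR adjusted p = 0.146). No strand setting is given, so reads of the overlap cannot be told apart, but the counts of C10orf55 were under those of PLAU (20781 to 22516 in NC and 12448 to 13980 in siPOLR1F) in each library.

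PLAT (ENSG00000104368, chromosome 8, 42174718 to 42207709, minus strand), which encodes the activator best known for acting on fibrin, was at 103, 79.7 and 98.6 FPKM in NC and at 48.1, 52.6 and 48.3 in siPOLR1F. NC replicate 2 was the lowest of its group and still above all siPOLR1F libraries. The mean went from 93.7 ± 12.3 to 49.7 ± 2.55 FPKM (SD, n = 3 each), 47.0% lower, with a log2 fold change of -0.91 (SE 0.09, 95% interval -1.12 to -0.70; edgeR adjusted p = 0.000632). Only 89 of the 13564 genes tested had a more negative log2 fold change than PLAT, and 226 had one more negative than PLAU. Among the 668 genes with a mean of at least 50 FPKM, 2 lay below PLAT and 4 below PLAU, PLAT being one of them.

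Summed, the 2 activators lay between 185 and 211 FPKM in NC and between 109 and 120.0 in siPOLR1F. The ratio of PLAU to PLAT within a library was 1.05, 1.33 and 1.03 in NC and 1.27, 1.28 and 1.34 in siPOLR1F. These ranges overlapped, and the mean log2 ratio differed by 0.20 (exact two-sided permutation p = 0.3, and 0.3 adjusted over the 4 ratios compared), so a difference in the size of the 2 falls was not detectable with these libraries.

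**Figure D1:**
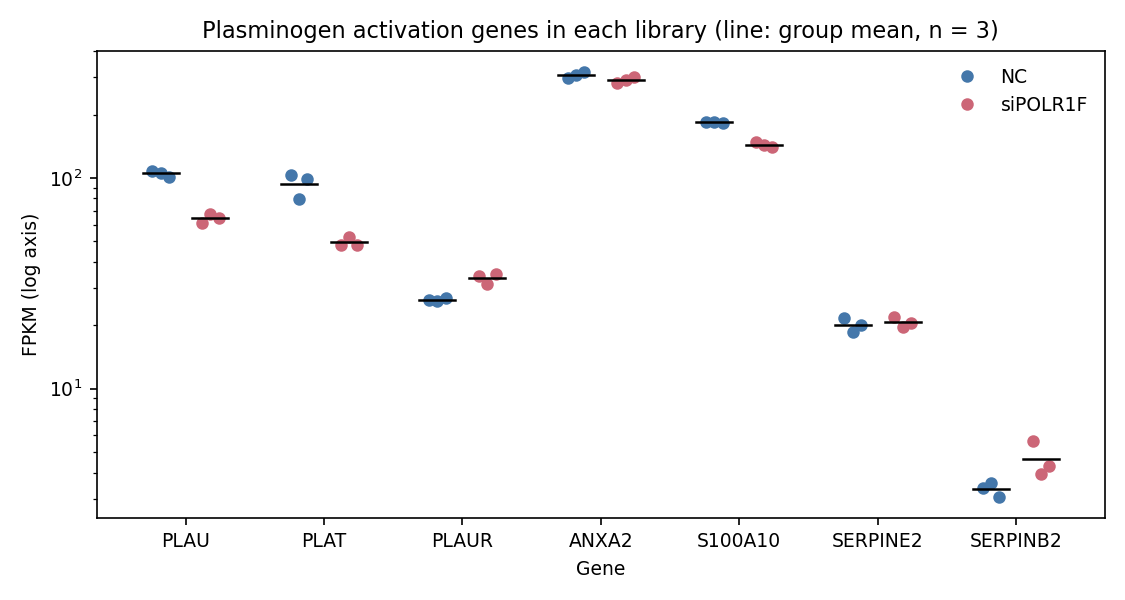
FPKM of the 7 genes (log axis) in each of the 3 NC (blue) and 3 siPOLR1F (red) libraries, with a line at each group mean. PLAU, PLAT and S100A10 lie lower in every siPOLR1F library, PLAUR and SERPINB2 lie higher, and the groups overlap for ANXA2 and SERPINE2.

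The urokinase receptor moved the other way from its ligand. PLAUR (ENSG00000011422, chromosome 19, 43646095 to 43670169, minus strand), a lipid-anchored surface protein, was at 26.5, 26.1 and 26.8 FPKM in NC and at 34.4, 31.6 and 35.2 in siPOLR1F, higher in every siPOLR1F library. Its mean rose from 26.5 ± 0.336 to 33.7 ± 1.90 FPKM (SD, n = 3 each), a log2 fold change of 0.36 (SE 0.06, 95% interval 0.22 to 0.49; edgeR adjusted p = 0.00537). An overlapping 7SL pseudogene, RN7SL368P, had at most 5 counts in any library. The ratio of PLAU to PLAUR was 4.09, 4.05 and 3.79 in NC and 1.77, 2.14 and 1.83 in siPOLR1F. Without overlap between the groups, it was 0.480 times as high after POLR1F silencing (log2 difference -1.06; exact two-sided permutation p = 0.1, 0.133 adjusted over 4 ratios).

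Of the subunits of the annexin complex, S100A10 fell and ANXA2 did not pass the test. ANXA2 (ENSG00000182718, chromosome 15, 60347134 to 60398157, minus strand), the calcium- and lipid-binding subunit, was the most abundant of the 7 genes, at 298, 309 and 319 FPKM in NC and at 283, 293 and 302 in siPOLR1F. The highest siPOLR1F library exceeded the lowest NC library. The log2 fold change was -0.07 (95% interval -0.16 to 0.02; edgeR adjusted p = 0.262). ANXA2P2, a processed copy of ANXA2 on chromosome 9, was listed with 14348 to 16018 counts in NC against 241555 to 256056 for ANXA2. In FPKM the copy stood closer, with means of 214 in NC and 204 in siPOLR1F against 309 and 293 for ANXA2. Reads can be split between such copies, which makes the level of ANXA2 uncertain; the copy's log2 fold change was -0.06, and the sum of both, an alternative chosen after seeing the data, had one of -0.07 (edgeR adjusted p = 0.268). A second copy, ANXA2P1, and an unnamed gene on the other strand within ANXA2, ENSG00000240163, had at most 56 and 41 counts in any library.

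S100A10 (ENSG00000197747, chromosome 1, 151982915 to 151993859, minus strand), the subunit whose carboxy-terminal lysine binds plasminogen, was at 185, 184 and 181 FPKM in NC and at 147, 143 and 140 in siPOLR1F. No siPOLR1F library reached the NC range. The mean went from 184 ± 1.90 to 144 ± 3.58 FPKM (SD, n = 3 each), 21.8% lower, with a log2 fold change of -0.35 (SE 0.05, 95% interval -0.46 to -0.24; edgeR adjusted p = 0.00265). The ratio of S100A10 to ANXA2 was 0.621, 0.596 and 0.570 in NC and 0.520, 0.487 and 0.465 in siPOLR1F, without overlap (log2 difference -0.28; exact two-sided permutation p = 0.1, 0.133 adjusted over 4 ratios).

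**Figure D2:**
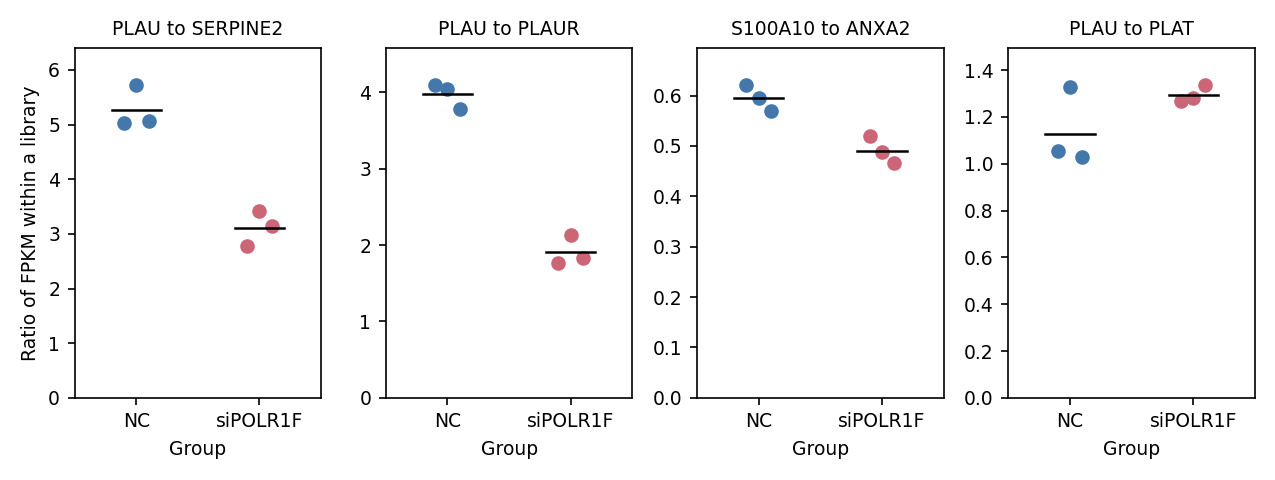
Ratio of the FPKM of 2 genes within each library (linear axes from 0), for 3 NC (blue) and 3 siPOLR1F (red) libraries, with a line at the geometric mean. PLAU to SERPINE2, PLAU to PLAUR and S100A10 to ANXA2 are lower in every siPOLR1F library, and PLAU to PLAT overlaps between the groups.

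The 2 serpins among the 7 genes did not pass the test. SERPINE2 (ENSG00000135919, chromosome 2, 223975045 to 224039290, minus strand), protease nexin-1, which inhibits thrombin and both activators, was at 21.5, 18.5 and 20.0 FPKM in NC and at 21.9, 19.7 and 20.6 in siPOLR1F. The groups overlapped. The log2 fold change was 0.06 with a 95% interval of -0.11 to 0.22 (edgeR adjusted p = 0.619). The ratio of PLAU to SERPINE2 was 5.03, 5.72 and 5.06 in NC and 2.78, 3.42 and 3.14 in siPOLR1F. It was lower in every siPOLR1F library (log2 difference -0.76; exact two-sided permutation p = 0.1, 0.133 adjusted over 4 ratios).

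SERPINB2 (ENSG00000197632, chromosome 18, 63871692 to 63903879, plus strand), plasminogen activator inhibitor 2, which is mostly kept inside cells, was the least abundant of the 7 genes. It was at 3.38, 3.57 and 3.07 FPKM in NC and at 5.68, 3.93 and 4.29 in siPOLR1F, from 586 to 662 counts and from 759 to 1079 counts. Every siPOLR1F library lay above every NC library, and siPOLR1F replicate 1 stood highest. The log2 fold change was 0.48 (SE 0.15, 95% interval 0.13 to 0.83), which missed the threshold in edgeR (adjusted p = 0.0639) and passed it in DESeq2 (adjusted p = 0.0155). The adjusted p lay between 0.0155 and 0.182 for all alternatives. Without siPOLR1F replicate 1 the value was 0.30 (edgeR adjusted p = 0.174).

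The order of the levels, which FPKM gives per length, was the same in both groups: ANXA2, S100A10, PLAU, PLAT, PLAUR, SERPINE2, SERPINB2. Neighbours in this order did not overlap within a group, with the exception of PLAU and PLAT in NC, where the highest PLAT library (103 FPKM) exceeded the lowest PLAU library (101 FPKM). In NC 97.9% of the tested genes had a lower mean FPKM than PLAU, 97.7% a lower one than PLAT, 89.6% a lower one than PLAUR and 40.4% a lower one than SERPINB2. The order rests on the gene lengths used for FPKM. By counts PLAT (41831 to 56325 in NC, 25907 to 28750 in siPOLR1F) lay above PLAU (20781 to 22516 and 12448 to 13980). S100A10 (12589 to 13192 and 9855 to 10343) lay below both. SERPINE2 (11184 to 13586 and 12425 to 13609) lay above PLAUR (7870 to 8318 and 9894 to 10875). The size of a ratio of 2 genes rests on those lengths too, but its change between the groups does not.

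**Figure D3:**
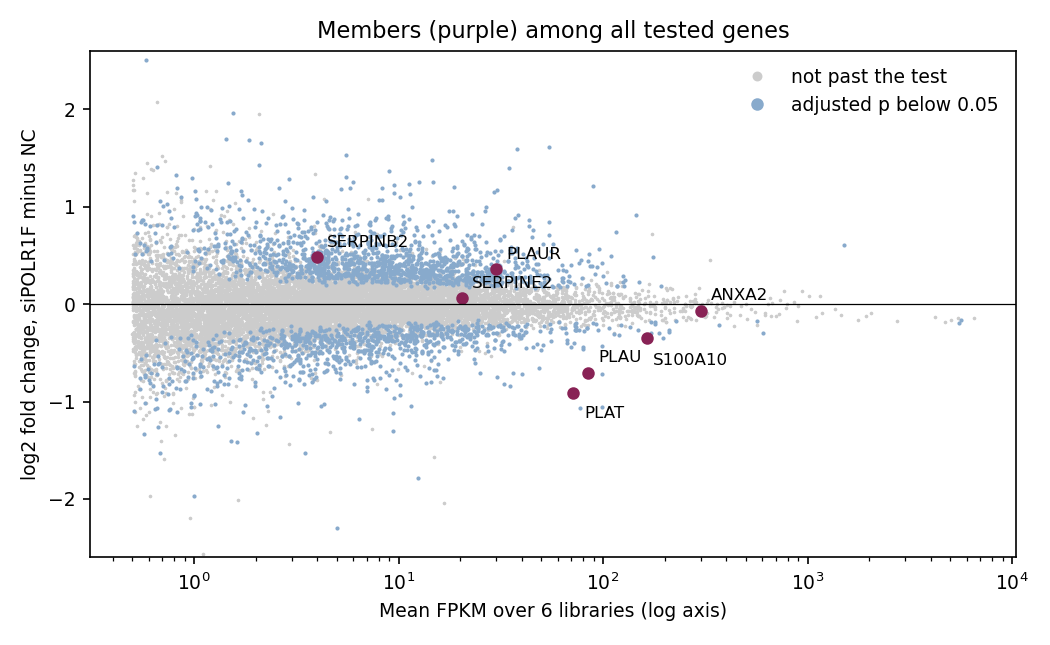
Log2 fold change (siPOLR1F minus NC) against mean FPKM over 6 libraries (log axis) for all tested genes, with genes past the test in blue, the others in grey and the 7 genes in purple; 11 genes lie beyond the axis limits of 2.6. PLAT and PLAU sit at the lower edge of the genes of their level, while ANXA2 and SERPINE2 lie near 0.

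The genes whose profile over the 6 libraries was most like that of each gene were found by the root mean square difference. It was taken on log2 CPM (counts scaled to library size and its TMM factor), each centred on the gene's mean. Only genes with a mean of at least 5 FPKM were compared. This distance includes the difference between the groups. The nearest genes therefore have a like fold change by construction, and their test results largely follow from the choice. Nearest to PLAU were APLN, which encodes the peptide hormone apelin (distance 0.052), and TMEM219 (0.054), and nearest to PLAT were DPM3, a subunit of dolichol-phosphate mannose synthase (0.062), and PNMA2 (0.084). Their log2 fold changes were -0.68, -0.77, -0.87 and -0.81, and all 4 passed the edgeR test. PLAUR was nearest to FOXJ3, a forkhead transcription factor (0.033), and RBM18 (0.034), and S100A10 to MOB1A, a cofactor of the LATS kinases (0.018), and ARL1, a small GTPase of the Golgi (0.030). Those of ANXA2 were CKS1B (0.013) and PPP2CB (0.013), and those of SERPINE2 were RAD17 (0.030) and APBB2 (0.030), of which none passed. SERPINB2 was nearest to RND3 (0.080) and ANKRD50 (0.084). RND3 had a log2 fold change of 0.53 and an edgeR adjusted p of 0.0430, which was above the threshold when NC replicate 2, NC replicate 3, siPOLR1F replicate 1 or siPOLR1F replicate 3 was left out (0.0709 to 0.126). For all alternatives it lay between 0.00686 and 0.163. ANKRD50 had 0.38 and an edgeR adjusted p of 0.0518. It passed in 5 of 15 alternatives, with an adjusted p between 0.00427 and 0.174.

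Other genes of the system were counted by role, without the 7 genes above. The median log2 fold change of all genes tested was -0.01. Among other activators and proenzymes only F12, the gene of coagulation factor XII, passed the filter, at 0.601 FPKM in NC and 0.522 in siPOLR1F (mean of 3; edgeR adjusted p = 0.463).

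The 6 other inhibitor genes reported, which are not the whole list, had a median log2 fold change of -0.07. SERPINB6, SERPINB8, SERPINI1, SERPINA1, SPINT1 and SPINT2 were tested, and 0 of these 6 passed in edgeR, DESeq2 or limma or had an unadjusted p below 0.05. Over all genes tested edgeR called 17.2%, so 0 of 6 says little about inhibitors as a set. The most abundant, SERPINB8 (4.47 FPKM in NC and 4.65 in siPOLR1F) and SERPINB6 (4.18 and 4.51), had log2 fold changes of 0.07 and 0.12.

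Among 15 tested receptor and docking genes, 2 rose, 1 fell and the other 12 missed the threshold, against 10.3% higher and 6.94% lower of all genes tested, with a median log2 fold change of -0.08. CD44, a hyaluronan receptor, rose by 0.18 and ITGA5, the alpha subunit of a fibronectin receptor, by 0.19, whereas KRT8, a keratin that can bind plasminogen at the cell surface, fell by 0.25 on the log2 scale. All 3 calls were lost in some fits that left out a library. CD44 lost its edgeR call when any library other than NC replicate 1 was left out (edgeR adjusted p between 0.0509 and 0.0766, and between 0.0039 and 0.0766 for all alternatives). ITGA5 lost it when any library other than NC replicate 3 was left out (edgeR adjusted p between 0.086 and 0.146, and between 0.0177 and 0.146 for all alternatives). KRT8 lost it without NC replicate 3, siPOLR1F replicate 1 or siPOLR1F replicate 3 (edgeR adjusted p between 0.0537 and 0.066, and between 0.00141 and 0.11 for all alternatives).

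Of the 6 genes of uptake and clearance reported, which are not the whole list tested, 1 rose, 1 fell and the other 4 missed the threshold (10.3% and 6.94% of all genes tested), with a median of -0.15. IGF2R, which carries lysosomal enzymes and can bind the urokinase receptor, rose from 10.3 ± 0.224 to 13.1 ± 0.557 FPKM (SD, n = 3 each; log2 fold change 0.37, edgeR adjusted p = 0.00203). VLDLR, a receptor that takes up complexes of urokinase and inhibitor, fell by 0.24 on the log2 scale. VLDLR lost its edgeR call when any library other than NC replicate 2 was left out (edgeR adjusted p between 0.061 and 0.142, and between 0.0138 and 0.157 for all alternatives). LRP1, the main clearance receptor of the activators, was at 8.02 ± 0.928 and 6.87 ± 0.755 FPKM (SD, n = 3 each; edgeR adjusted p = 0.169).

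Of 17 genes whose proteins plasmin cuts or activates, 3 rose, 2 fell and 12 did not pass, where 17.2% of all genes tested were called, with a median of 0.00. MMP1, the interstitial collagenase, rose from 1197 ± 61.9 to 1807 ± 78.8 FPKM (SD, n = 3 each; log2 fold change 0.60, edgeR adjusted p = 0.000245). The stromelysin gene MMP3 rose from 12.7 ± 2.91 to 24.3 ± 4.90 FPKM (log2 fold change 0.95, edgeR adjusted p = 0.0117) and LAMB3, a chain of laminin-332, from 33.6 ± 1.18 to 47.6 ± 3.12 FPKM (0.51, edgeR adjusted p = 0.00144). FN1, fibronectin, fell from 52.2 ± 3.07 to 38.3 ± 4.87 FPKM (-0.44, edgeR adjusted p = 0.0126). FGG, the gamma chain of fibrinogen, which was the other gene of this list to fall and was named after its values were seen, went from 2.52 ± 0.396 to 1.43 ± 0.189 FPKM (-0.80, edgeR adjusted p = 0.0143). MMP3, FN1 and FGG lost their calls without the filter on low values (edgeR adjusted p = 0.075, 0.0727 and 0.0623), and FGG had -0.53 on the log2(FPKM + 1) scale.

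Of 17 relatives by family (the Ly6 and urokinase receptor family, annexins and S100 proteins), 3 rose, 2 fell and 12 did not pass, beside 10.3% higher and 6.94% lower of all genes tested, with a median of -0.06. The annexin genes ANXA7 (0.41) and ANXA6 (0.26) rose and ANXA3 (-0.28) fell. The third annexin to rise, ANXA4, was named after its value was seen (0.28, edgeR adjusted p = 0.0367). ANXA4 lost its call when any library other than NC replicate 3 was left out (edgeR adjusted p between 0.0588 and 0.115), in both limma fits (0.0707 and 0.0683) and without the filter on low values (0.0794), with values between 0.00851 and 0.115 for all alternatives. S100A6, calcyclin, fell by 0.26 on the log2 scale, from 163 ± 9.34 to 135 ± 7.51 FPKM (SD, n = 3 each). ANXA6 lost its edgeR call without siPOLR1F replicate 2 or 3 (adjusted p 0.0782 and 0.0769, and between 0.00125 and 0.0782 for all alternatives), and S100A6 when any library other than NC replicate 2 was left out (edgeR adjusted p between 0.0558 and 0.101, and between 0.00341 and 0.101 for all alternatives).

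**Figure D4:**
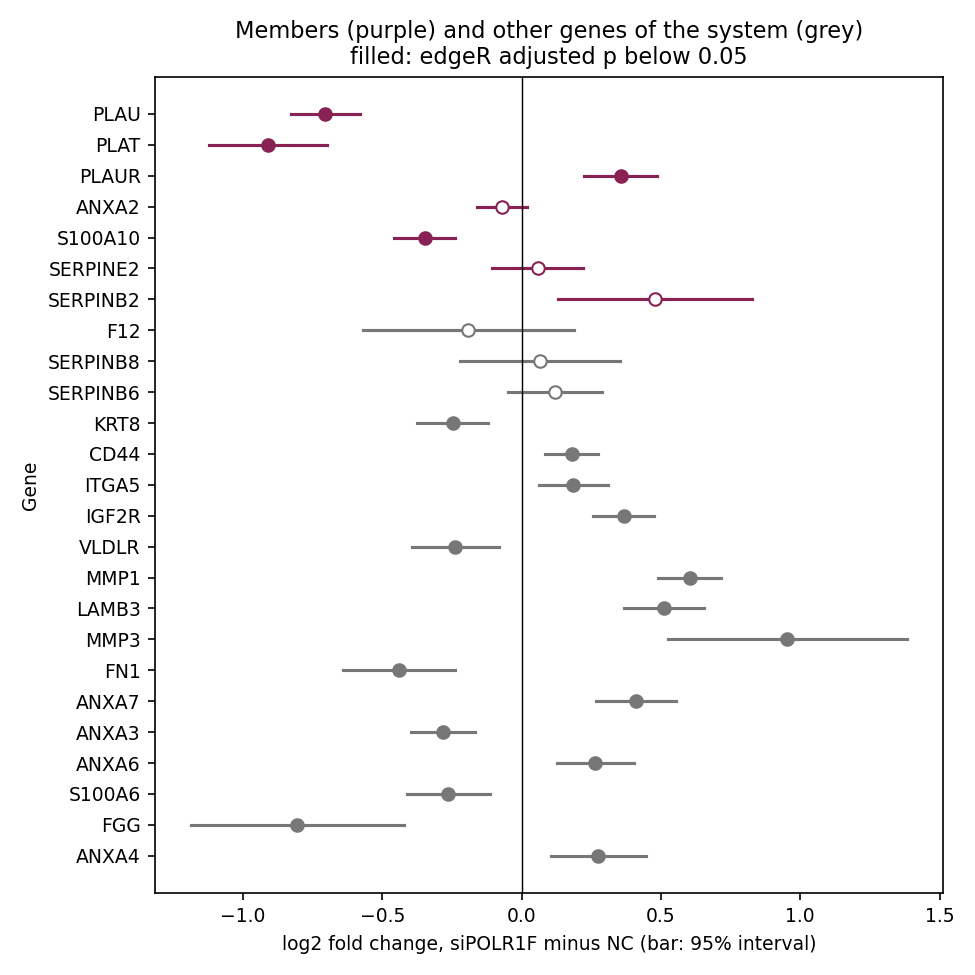
Log2 fold change (siPOLR1F minus NC) with its 95% interval from edgeR for the 7 genes (purple) and for genes of the role lists (grey), which are those the naming rule picked followed by FGG and ANXA4, with filled points for an adjusted p below 0.05. PLAT (-0.91), FGG (-0.80) and PLAU (-0.70) have the most negative values shown and MMP3 (0.95) the highest.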

How the data were processed

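Per the labels' protocols, total RNA was isolated with TRIzol, poly(A) RNA was made into libraries and read in pairs of 150 bases. The submitters' processing notes name fastp, HISAT2, StringTie and GRCh38 (hg38). Tool versions, gene annotation, strandedness and the handling of multi-mapped reads are not given in the labels or notes. The authors deposited whole-number counts and FPKM per gene and library; counts were used as deposited. FPKM followed the counts by 1 factor per library (median deviation 0.0202%, at most 2.09%).

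edgeR 4.0.16 (R 4.3.3; TMM, quasi-likelihood, two-sided) was fitted to the 13564 genes with a mean of at least 0.5 FPKM, with Benjamini-Hochberg adjustment over all of them; the script was tested on simulated data. Intervals are 95%. Ratios within a library used FPKM. Named were the 7 genes, POLR1F, per role list up to 4 others past the test, by adjusted p (where none passed, the 2 most abundant), overlapping genes and copies, and the 2 nearest profiles. Among genes of the role lists, the values of LRP1, FGG and ANXA4 were given outside this rule. Genes and lists were chosen with earlier results of these data known. From the inhibitor and uptake lists 2 genes are not reported here and are left out of those counts, medians and the plot, so these do not describe the full lists. Motif and transcript searches used RefSeq promoters and GENCODE 29. Alternatives were DESeq2 1.42.0, other scalings and filters, limma 3.58.1 on log2(FPKM + 1) and log2(FPKM + 0.1), a block for the replicate number, and fits without each library in turn.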

Additional observations from a re-analysis of the deposited data

How the results depend on the processing

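PLAU, PLAT, PLAUR and S100A10 kept their direction and their call under every alternative run (16 for PLAU and 15 for each of the others), and ANXA2 and SERPINE2 failed the test in all of theirs; over the alternatives the log2 fold change was -0.74 to -0.67 for PLAU, -1.01 to -0.84 for PLAT, 0.32 to 0.40 for PLAUR and -0.37 to -0.33 for S100A10. SERPINB2 passed with DESeq2 (0.48) and in none of its other 13 alternatives; at a mean of at least 5 FPKM it was not tested. The 4 ratios kept their direction in every alternative. Counts over all genes were 730 to 1326 higher and 423 to 841 lower when 1 library was left out, and 663 and 313 without a filter on mean FPKM. Leaving out 1 library gave 0 to 1 receptor genes higher and 0 to 2 lower, 0 to 1 uptake genes lower, and 1 to 3 relatives higher and 1 to 2 lower. Without a filter, 0 receptor genes were higher and 0 lower, 0 uptake genes were lower, 0 plasmin substrates were lower, and 1 relative was higher and 1 lower. With limma at either pseudocount, 1 receptor gene was higher and 0 uptake genes were lower. With library size alone 1 receptor gene was higher, and at a mean of at least 5 FPKM 0 uptake genes and 4 relatives were lower. With the replicate number as a block, 1 receptor gene was higher and 2 were lower, and the counts over all genes were 1517 and 1125. The labels do not tell whether the numbers pair the libraries. Deviations of same-numbered libraries from their group means correlated at 0.329, -0.083 and 0.197 over genes. Those of differently numbered libraries correlated at -0.33 to 0.16, and these values do not settle whether there was a pairing. The causes of these shifts were not tested.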
